A study of Mus musculus with 6 samples.

Results

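The classical FOXO target genes described here are 36 genes of metabolism, cell cycle arrest, stress defence, autophagy and cell death that are known as targets of FOXO transcription factors in other tissues. They were chosen by name, with earlier results of these data known, and all 36 were found among the 23420 genes of the deposited table. RNA-seq had been carried out on whole uteri of *Foxo1f/f* mice, which lack Cre and served as controls, and of *PgrCre/+ Foxo1f/f* mice, called *Foxo1d/d*. The C57BL/6J females were 8 weeks old and had been mated with vasectomized males, and the uteri were taken on pseudopregnancy day (PPD) 4.5. Each genotype had 3 samples, and each sample was pooled from 2 females. Cre is expressed here from *Pgr*, the progesterone receptor (PGR) locus, so that deletion is neither restricted to a single uterine cell type nor to the uterus, and does not reach the blood vessels. The mean total was 26125014 counts per library in *Foxo1f/f* and 27257963 in *Foxo1d/d*.

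FOXO proteins are forkhead transcription factors that insulin and growth factor signaling holds in the cytoplasm: PI3K activates AKT, AKT phosphorylates FOXO, and the phosphorylated protein leaves the nucleus. When signaling is low, nuclear FOXO activates genes that spare glucose, slow growth, arrest the cell cycle and break down protein. Several targets feed back on the same pathway, among them the insulin receptor and its adaptor. In the uterus FOXO1 is known from decidualized stromal cells, where it acts with PGR on genes such as *Igfbp1*.

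The table used gives the authors' mean raw count of each gene for each genotype, so that values of single pools were not analysed here, no test between the genotypes was run, and nothing below carries an SD. A pseudocount of 1 was added to each mean, the sum was scaled to its column total, and *Foxo1d/d* was compared with *Foxo1f/f* as a log2 ratio. Folds of single genes were computed without the pseudocount, and CPM is the mean count scaled to its column total. The 95% interval given with a ratio was computed exactly from the counts summed within a genotype and covers counting error only, not the differences between pools. The targeted gene itself averaged 3941 counts in *Foxo1f/f* against 1456 in *Foxo1d/d*, and its log2 ratio was -1.50 (counting interval -1.55 to -1.45). The floxed allele loses a coding exon, so that reads from the rest of *Foxo1* can remain, as can reads from cells without Cre. Of the other FOXO genes, *Foxo3* had a ratio of -0.41 and *Foxo4* of -0.13, while *Foxo6* was scarce, with mean counts of 24.7 and 31.3.

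As a group, the classical FOXO targets were lower in *Foxo1d/d* uteri, mostly by less than 1.5-fold. Of the 36 members, 34 averaged at least 10 counts across the genotypes, and 8 of the 34 were at least 1.5-fold lower in *Foxo1d/d*, against 3.51% of the 15696 genes that met the same minimum. These were *8430408G22Rik* (known as *Depp*), *Pdk4*, *Irs2*, *Tsc22d3*, *Pck1*, *Fbxo32*, *Trp53inp1* and *Sesn1*. A single member, *Gadd45g*, was at least 1.5-fold higher, against 5.43% of all genes. By any amount, 29 of the 34 were lower, against 44.9% of all genes, and the counting interval lay wholly below no difference for 26 of them, against 27.1%. The median log2 ratio was -0.31 for the members and 0.02 for all genes. Since the members were chosen with earlier results of these data known, these shares describe the list and are no independent test. In a bulk sample, fewer cells of a type and less RNA per cell cannot be told apart. The members just outside the 1.5-fold threshold were *Txnip*, at -0.58 (counting interval -0.59 to -0.56), and *Trim63*, at -0.56 (counting interval -0.94 to -0.21), and the nearest inside was *Sesn1*, at -0.65 (counting interval -0.69 to -0.61). When the ratios were centred on the median gene, *Txnip* and *Trim63* also passed, and 10 members were then past the threshold on the lower side and 1 on the higher.

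**Figure D1:**
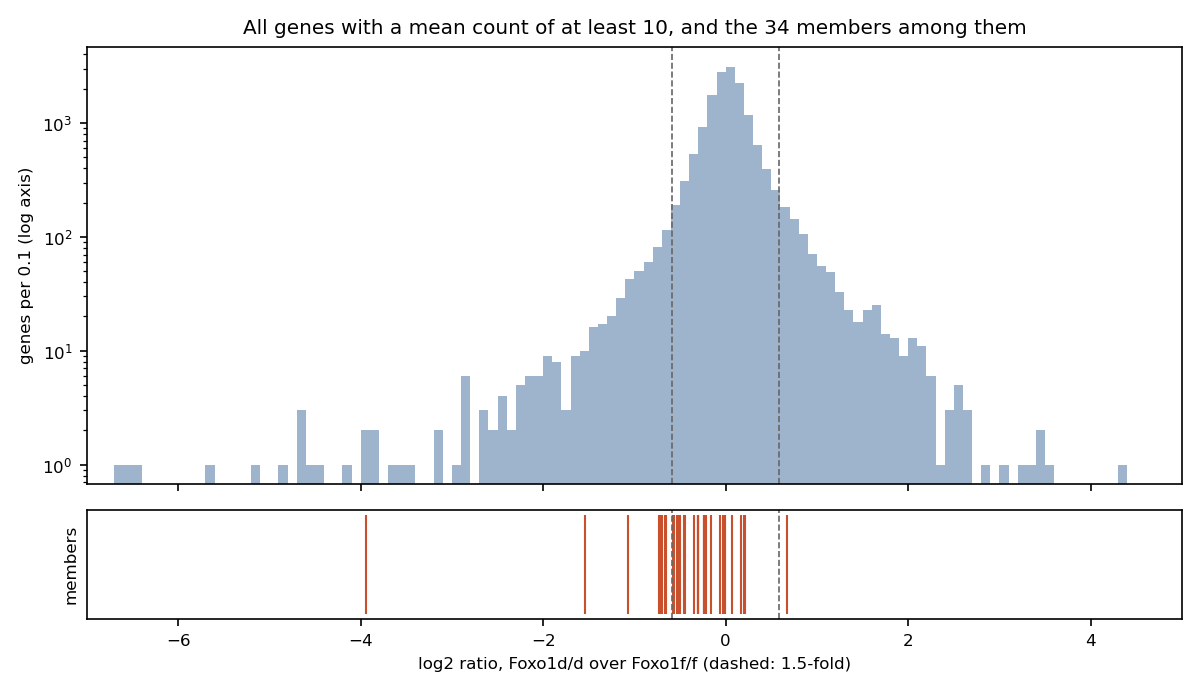
Histogram of log2 ratios (*Foxo1d/d* over *Foxo1f/f*) for the 15696 genes averaging at least 10 counts (upper panel, log count axis), with the 34 members that met this minimum as vertical lines (lower panel). Most members lie between 0 and the 1.5-fold line on the lower side, with *8430408G22Rik* far to the left at -3.94 and *Gadd45g* alone past the line on the right.

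The genes for insulin response and fuel choice had the lowest median ratio of the 7 roles. All 4 of those averaging at least 10 counts were lower in *Foxo1d/d*, 3 of them past 1.5-fold, with a median of -0.90. Of all genes, 44.9% were lower by any amount and 3.51% past 1.5-fold lower. Each role holds few genes, so that a shared direction says little by itself. *Pdk4*, which encodes a kinase that shuts off pyruvate dehydrogenase and so spares glucose, averaged 951 counts in *Foxo1f/f* against 339 in *Foxo1d/d*. Its log2 ratio of -1.55 (counting interval -1.65 to -1.44) was close to that of *Foxo1*, and the counting intervals of the pair overlapped. *Pck1*, which encodes the cytosolic enzyme that makes phosphoenolpyruvate for new glucose and glycerol, had mean counts of 623 and 394, a ratio of -0.72 (counting interval -0.83 to -0.62). *Insr*, the insulin receptor gene and the most abundant per kilobase of this role, was lower by less, with a ratio of -0.30 (counting interval -0.33 to -0.27).

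*Irs2* encodes an adaptor that carries the signal from the insulin and IGF1 receptors to PI3K. It averaged 403 counts in *Foxo1f/f* against 199 in *Foxo1d/d*, 2.11-fold lower (counting interval 1.91 to 2.33), with a log2 ratio of -1.07. The promoter is shown because it holds a FOXO motif, along with those of *Sesn1*, the other member past 1.5-fold with such a motif, and of *Igfbp1* and *G6pc*, the textbook FOXO promoters. Each runs from 250 bases before to 50 bases after the gene start (RefSeq, GRCm38.p6) and is written along the gene. The positions are chr8:11008880-11009179 on the minus strand for *Irs2* and, on the plus strand, chr10:41810324-41810623 for *Sesn1*, chr11:7197537-7197836 for *Igfbp1* and chr11:101367466-101367765 for *G6pc*. Capitals mark the insulin response element, CAAAACA, or the DAF-16 element, GTAAACA, on either strand.
Irs2: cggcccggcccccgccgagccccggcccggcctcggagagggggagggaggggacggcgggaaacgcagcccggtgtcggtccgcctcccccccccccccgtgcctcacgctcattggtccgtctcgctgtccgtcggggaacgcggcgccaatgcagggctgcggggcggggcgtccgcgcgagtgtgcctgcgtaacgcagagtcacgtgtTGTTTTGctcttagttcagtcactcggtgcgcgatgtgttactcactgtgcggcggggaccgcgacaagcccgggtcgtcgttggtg
Sesn1: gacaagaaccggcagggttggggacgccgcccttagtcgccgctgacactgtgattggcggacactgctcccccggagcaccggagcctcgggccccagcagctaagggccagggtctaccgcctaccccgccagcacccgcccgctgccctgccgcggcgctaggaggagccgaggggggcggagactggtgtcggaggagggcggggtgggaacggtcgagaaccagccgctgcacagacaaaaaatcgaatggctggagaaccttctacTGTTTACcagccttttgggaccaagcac
Igfbp1: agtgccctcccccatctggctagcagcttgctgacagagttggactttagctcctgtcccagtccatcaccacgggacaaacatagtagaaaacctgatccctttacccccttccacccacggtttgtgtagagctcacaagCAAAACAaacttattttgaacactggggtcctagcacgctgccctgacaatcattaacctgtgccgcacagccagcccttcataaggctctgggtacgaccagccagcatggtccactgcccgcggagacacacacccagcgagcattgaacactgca
G6pc: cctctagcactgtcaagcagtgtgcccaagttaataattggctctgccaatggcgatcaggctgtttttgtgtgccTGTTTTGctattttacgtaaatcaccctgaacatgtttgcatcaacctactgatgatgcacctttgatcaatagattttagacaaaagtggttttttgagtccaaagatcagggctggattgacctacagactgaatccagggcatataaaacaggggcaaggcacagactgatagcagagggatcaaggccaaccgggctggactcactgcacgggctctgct

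Counted from the RefSeq start site, the motif began at -37 bases in *Irs2*, -108 in *Igfbp1* and -174 in *G6pc*, where negative numbers lie before the start, and 23 bases after it in *Sesn1*. The GENCODE M21 gene models, which give the gene positions elsewhere in the text, place the gene start differently. The RefSeq start lies before it in *Irs2* and after it in *Sesn1*, *G6pc* and, by a few bases, *Igfbp1*, so that these distances hold for the RefSeq start alone. RefSeq promoters were matched for 32 of the 36 members, and *Trib1*, *Trp53inp1*, *Insr* and *Fbxo32* had no entry. At least one of the motifs was found in 10 of the 32 (31.2%), against 10.8% of all 27025 genes with an entry. The members were chosen as known FOXO targets, the textbook promoters of *Igfbp1* and *G6pc* included, so that this share does not come from an independent list. The DAF-16 element was found for 6 members, *Bbc3*, *Bcl2l11*, *Btg1*, *Sesn1*, *Trim63* and *Txnip*, and in 4.05% of all genes. The insulin response element was found for 4, *Ccng2*, *G6pc*, *Igfbp1* and *Irs2*, and in 7.20% of all genes. The 8 motif-holding members averaging at least 10 counts had a median log2 ratio of -0.43, and 2 of them were past 1.5-fold lower and 0 higher. The 22 members with an entry but without a motif had a median of -0.30. Of these, 4 were past 1.5-fold lower, *8430408G22Rik* and *Pdk4* included, and 1, *Gadd45g*, was past it on the higher side. A match is no more than a run of letters in a short window, and binding was not measured.

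*Igfbp1* and *G6pc*, the members best known from liver, were almost without counts. *Igfbp1*, a secreted IGF-binding protein and a marker of human decidual cells, had 21 counts summed over the 3 *Foxo1f/f* libraries and 1 over the 3 *Foxo1d/d* libraries, that is, mean counts of 7.0 and 0.333. This was 21.9-fold lower in *Foxo1d/d*, with a counting interval from 3.52 to 906. The fold rests on 1 count in *Foxo1d/d* and its size depends on the pseudocount. The log2 ratio was -2.65 with the pseudocount of 1, -4.10 with 0.1 and -1.23 with 5. *G6pc*, the catalytic subunit of the liver's glucose-6-phosphatase, had 2 and 3 summed counts, and no fold is given since both are at or under 3 counts. Most liver markers had few counts as well. Of the 9 on the list, 2 averaged at least 10 counts, *Ttr*, with mean counts of 113.7 and 47.3, and *Serpina1a*, with 15.7 and 22. *Apoc3* was at 0, *Alb* had mean counts of 6.00 and 4.67, and *Fgb* of 9 and 0. The list summed to 6.05 and 3.19 CPM, most of it from *Ttr* (-1.31), which is also on the list of gland markers.

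Fat cell markers were higher in *Foxo1d/d*, in the opposite direction to *Pck1* and *Pdk4*, which fat cells also express. Of 11 adipocyte markers, 9 averaged at least 10 counts, all 9 were higher and 8 were past 1.5-fold, with a median log2 ratio of 1.86 and the highest ratios in *Cidec* (2.19), *Retn* (2.16) and *Plin1* (2.10). Their summed level was 25.1 CPM in *Foxo1f/f* and 85.4 in *Foxo1d/d*, the most abundant in *Foxo1d/d* was *Cfd*, which was about level with *Fabp4* in *Foxo1f/f*, none was at 0, and *Ucp1* had mean counts of 1.00 and 0.667. Their part in the ratios of *Pck1* and *Pdk4* was not tested.

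The widest difference among the members averaging at least 10 counts was that of *8430408G22Rik*. This gene was placed here with those that restrain PI3K, AKT and mTOR or are related to feedback on them. Of the 8 in this role, 6 were lower in *Foxo1d/d*, against 44.9% of all genes, and 2 were higher. Past 1.5-fold lower were 3, against 3.51% of all genes. *8430408G22Rik*, or *Depp*, first known as a decidual gene induced by progesterone, averaged 1857 counts in *Foxo1f/f* against 125 in *Foxo1d/d*. This was 15.5-fold lower (counting interval 14.0 to 17.3), or -3.94 as a log2 ratio (counting interval -4.11 to -3.80). Counted from the lowest ratio of all 15696 genes, it had rank 14 and *Foxo1* itself rank 96. By level per kilobase of exon, it had rank 5 of the 36 members in *Foxo1f/f* and rank 32 in *Foxo1d/d*. *Tsc22d3*, the glucocorticoid-induced leucine zipper gene, had mean counts of 5285 and 3316, a ratio of -0.73 (counting interval -0.77 to -0.70).

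The sestrins, which restrain mTORC1 when amino acids or energy are short, differed from each other. *Sesn1*, whose promoter is printed above, had mean counts of 4677 and 3112. *Sesn2* was slightly higher in *Foxo1d/d*, at 0.17 (counting interval 0.05 to 0.28), and *Sesn3* differed by less than its counting error, at -0.01 (counting interval -0.08 to 0.06). *Pik3ip1*, an inhibitor of PI3K, had a ratio of -0.45, and *Ddit4*, another brake on mTORC1, of -0.16. *Trib1*, a pseudokinase gene, was the other member of this role on the higher side, at 0.21 (counting interval 0.12 to 0.29).

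**Figure D2:**
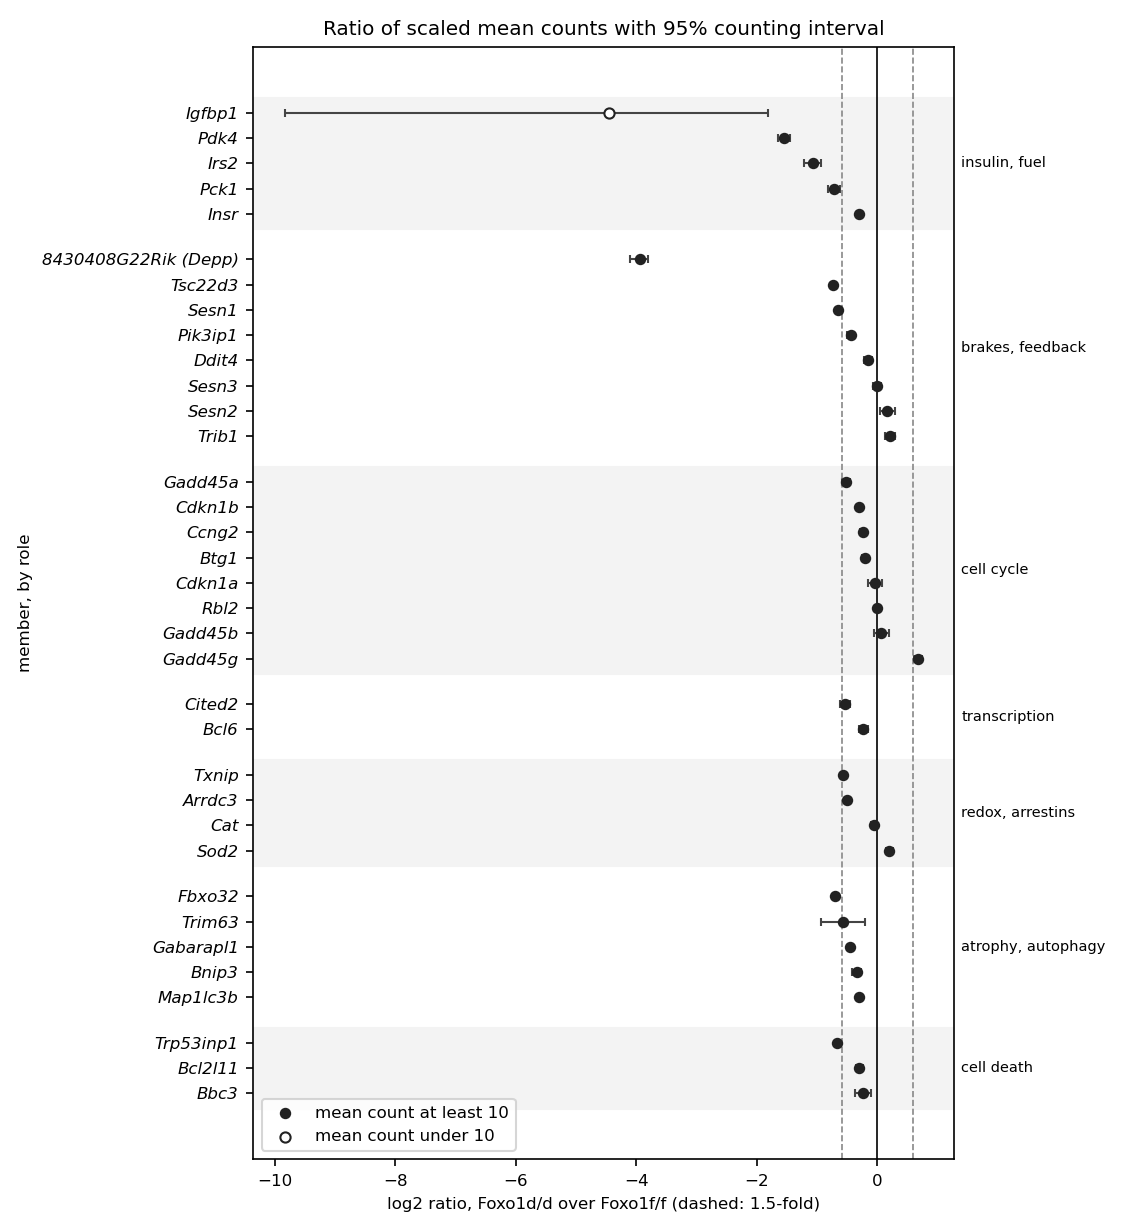
Log2 ratios (*Foxo1d/d* over *Foxo1f/f*) for 35 members, by role, with 95% counting intervals as horizontal bars and 1.5-fold as dashed lines; *G6pc* is left out for want of counts. *Igfbp1*, an open circle computed without the pseudocount, has an interval from -9.82 to -1.82, while the bars of most other members are about as narrow as their points.

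Most of the cell cycle genes stayed within 1.5-fold. Of these 8 genes, 6 were lower and 2 higher in *Foxo1d/d*, with a median of -0.12, and 3 intervals included no difference. Over all genes, 44.9% were lower. *Gadd45g*, which encodes a small stress protein that slows the cell cycle, was the exception, averaging 834 counts in *Foxo1f/f* against 1385 in *Foxo1d/d*, a ratio of 0.67 (counting interval 0.60 to 0.74). Its relatives lay on either side of no difference, *Gadd45a* at -0.52 (counting interval -0.58 to -0.46) and *Gadd45b* at 0.07 (counting interval -0.06 to 0.19). The cyclin-dependent kinase inhibitor gene *Cdkn1b* was at -0.30, and *Cdkn1a*, another of that family, at -0.03 (counting interval -0.15 to 0.08). *Btg1*, *Ccng2* and *Rbl2*, the last a retinoblastoma relative that holds cells in quiescence, lay between -0.24 and -0.0024. Both transcription regulators were lower by less than 1.5-fold: *Cited2*, a coactivator-binding protein that limits hypoxia responses, at -0.53, and the repressor gene *Bcl6* at -0.23.

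The redox and arrestin genes held the most abundant member. *Txnip*, which encodes a thioredoxin-binding protein that limits glucose uptake, had mean counts of 22489.7 and 15749 and a level of 305 CPM per kilobase in *Foxo1f/f* against 204 in *Foxo1d/d*, and gave 22% of the members' summed counts in *Foxo1f/f*. Its exons overlap those of *Gm15441* over 21.4% of their length, and reads of overlapping genes cannot be told apart where strand is not used. *Arrdc3*, its arrestin relative, had a ratio of -0.50 (counting interval -0.54 to -0.45). The antioxidant enzymes differed less, with *Cat* (catalase) at -0.06 (counting interval -0.11 to -0.02) and *Sod2* (mitochondrial superoxide dismutase) on the higher side at 0.20 (counting interval 0.14 to 0.25).

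All 5 genes of atrophy and autophagy were lower in *Foxo1d/d*, against 44.9% of all genes, with a median of -0.46. *Fbxo32*, which encodes the muscle ubiquitin ligase atrogin, had mean counts of 10008 and 6431, a ratio of -0.70 (counting interval -0.73 to -0.67). *Trim63*, the gene of its partner ligase in wasting muscle, was scarce, with mean counts of 52.3 and 36.7. The genes that build or recruit autophagosomes lay between -0.46 for *Gabarapl1* and -0.31 for *Map1lc3b*, with *Bnip3*, a receptor for the removal of mitochondria, at -0.34. Exons of *Bnip3* overlap those of another gene over 27.2% of their length, as do those of *Gadd45a* over 19.5% and *Rbl2* over 16.8%, and less of *Cdkn1a*. For the members past 1.5-fold the overlap was at most 2.67%, in *Fbxo32*.

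Muscle markers were read beside these ligases. The skeletal muscle myosin gene *Myh4* was at 0 in both genotypes, *Myh1* had mean counts of 0.667 and 0.667, and the 10 skeletal muscle markers summed to 118 and 119 CPM, mostly *Acta1*. Of the 6 averaging at least 10 counts, 4 were higher and 2 lower, with a median of 0.10. *Ckm* alone was past 1.5-fold, lower at -0.67 (counting interval -1.01 to -0.36), and the highest was *Tnnc2* at 0.51 (counting interval -0.0015 to 1.10). Smooth muscle markers were abundant and lay on the same side as the ligases: 10 of 10 were lower in *Foxo1d/d*, none past 1.5-fold, with a median of -0.26 and none at 0. They summed to 7736 CPM in *Foxo1f/f* and 6336 in *Foxo1d/d*, with *Myh11* the most abundant, and their part in the ratios of *Fbxo32* and *Trim63* was not tested.

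The cell death genes were also lower, 3 of 3, against 44.9% of all genes. *Trp53inp1*, a stress gene that p53 also activates and that promotes death and autophagy, had mean counts of 5620.3 and 3697, a ratio of -0.67 (counting interval -0.70 to -0.63). The genes of the BH3-only killers *Bcl2l11* (BIM) and *Bbc3* (PUMA) were lower by less, at -0.30 and -0.24.

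**Figure D3:**
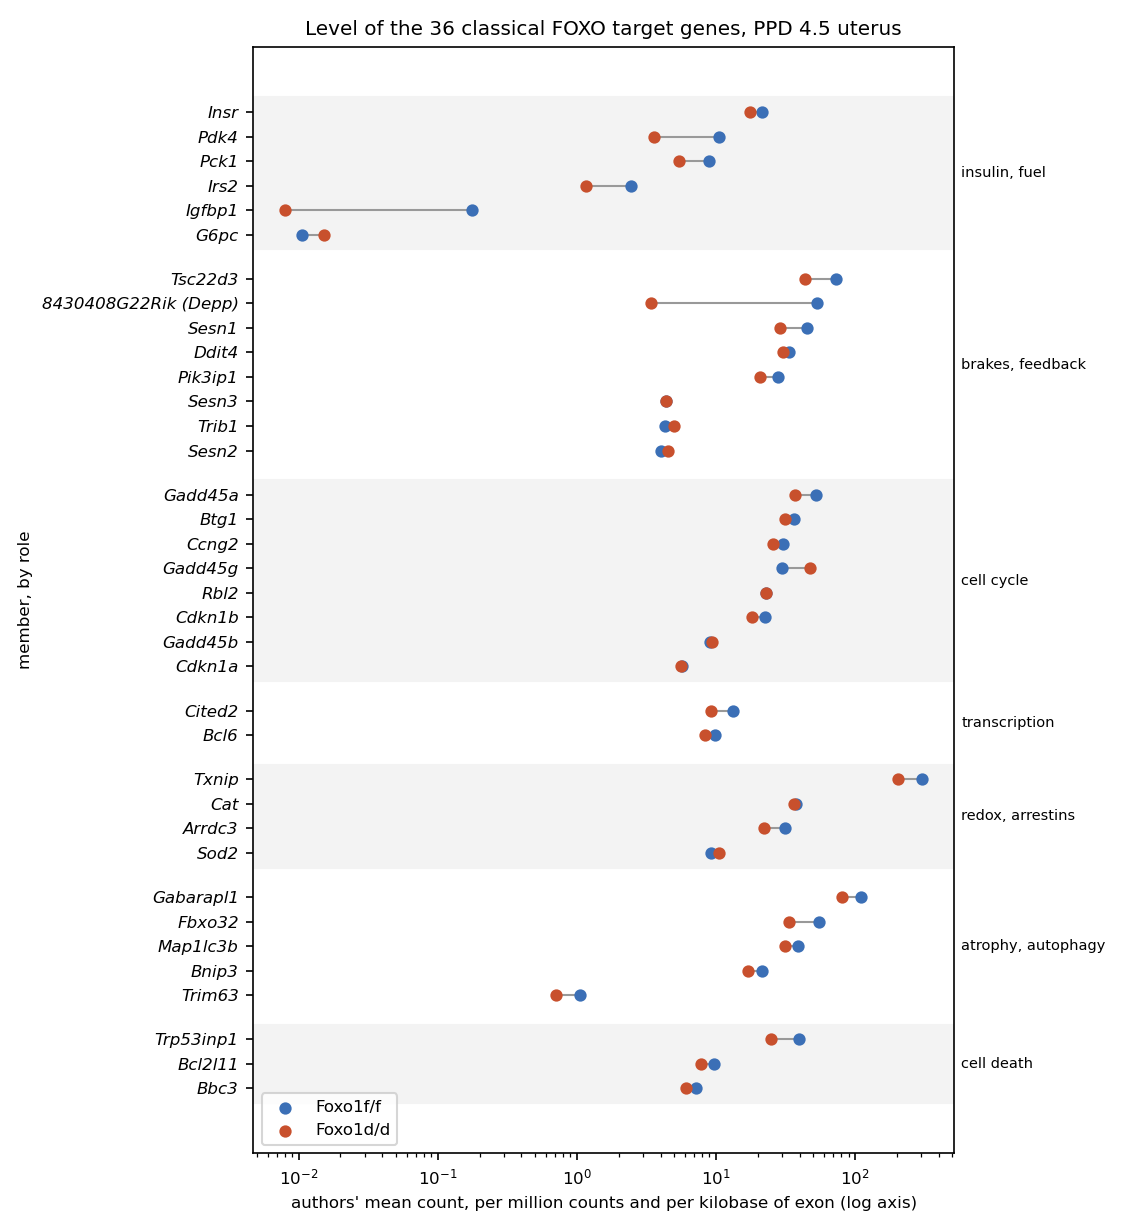
Authors' mean count of each of the 36 members in *Foxo1f/f* (blue) and *Foxo1d/d* (red), in CPM per kilobase of exon, on a log axis and grouped by role. *Txnip* lies highest and *Igfbp1* and *G6pc* lowest in both genotypes, and *8430408G22Rik* spans the widest gap among the members averaging at least 10 counts.

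Levels per kilobase spanned several orders of magnitude among the members. After *Txnip*, the highest in *Foxo1f/f* were *Gabarapl1* at 111, *Tsc22d3* at 73.0, *Fbxo32* at 54.9 and *8430408G22Rik* at 53.1 CPM per kilobase, and the median member was at 22. At the low end, *Irs2* stood at 2.44 and *Trim63* at 1.06, above *Igfbp1* and *G6pc*. In *Foxo1d/d* the level of *8430408G22Rik* was 3.42, and that of the median member 17.2. All members together summed to 3914 CPM in *Foxo1f/f* against 2862 in *Foxo1d/d*, a fold of 0.731. The members past 1.5-fold share no region: in the GENCODE gene models on GRCm38, *8430408G22Rik* (chr6:116650609-116652794) and *Pdk4* (chr6:5483351-5496309) lie far apart on the same chromosome, and the others are *Pck1* (chr2:173153048-173159273), *Irs2* (chr8:10984681-11008458), *Sesn1* (chr10:41809935-41908424), *Fbxo32* (chr15:58175879-58214932), *Trp53inp1* (chr4:11156431-11174379), *Tsc22d3* (chrX:140539528-140600659) and *Gadd45g* (chr13:51846678-51848468).

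The members were set beside their nearest relatives, genes of the same families that are not on the list. Of 51 relatives, 46 averaged at least 10 counts, and 7 of these were past 1.5-fold, with a median of -0.04. On the lower side were 5 (10.9%, against 3.51% of all genes) and on the higher side 2 (4.35%, against 5.43%). In 14 of 21 families the member had the lowest ratio, counting *Cited2*, which was level with *Cited1*, and in 3 it had the highest. No all-gene share stands beside this count. Many families held a single relative with enough counts, where the member can only be the lowest or the highest. Relatives were also assigned after the data were seen. The members past 1.5-fold had 11 relatives on the list, and none of these was past that fold. Over all genes 3.51% were lower and 5.43% higher, and for 11 genes a count of 0 is near that share. These families were picked here because their member had passed. *8430408G22Rik*, *Sesn1* and *Gadd45g* had no relative outside the members on the list. *Pdk4* stood at -1.55 and its relatives between -0.28 and 0.44. *Irs2* stood at -1.07, against 0.40 for *Irs1*, the other main adaptor, which was on the higher side. *Tsc22d3* stood at -0.73, against -0.04 to -0.02 for the other genes of its family. The reverse held for *Trib1*, whose relatives *Trib2* and *Trib3* were past 1.5-fold lower at -0.94 and -0.93. Of the 5 relatives of *Bcl2l11*, 2 lay above it, and *Hrk* alone was past 1.5-fold, lower at -1.51. *Igfbp3*, averaging 23774 counts in *Foxo1f/f* against 5250.3 in *Foxo1d/d*, had the lowest ratio of the relatives, -2.24, and *Igfbp5* the highest, 0.67. *Insr* lay between its relatives *Igf1r*, past 1.5-fold lower at -0.75, and *Insrr*, past it on the higher side at 0.67. The most abundant relative by CPM was *Igfbp3* in *Foxo1f/f* and *Igfbp5* in *Foxo1d/d*.

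**Figure D4:**
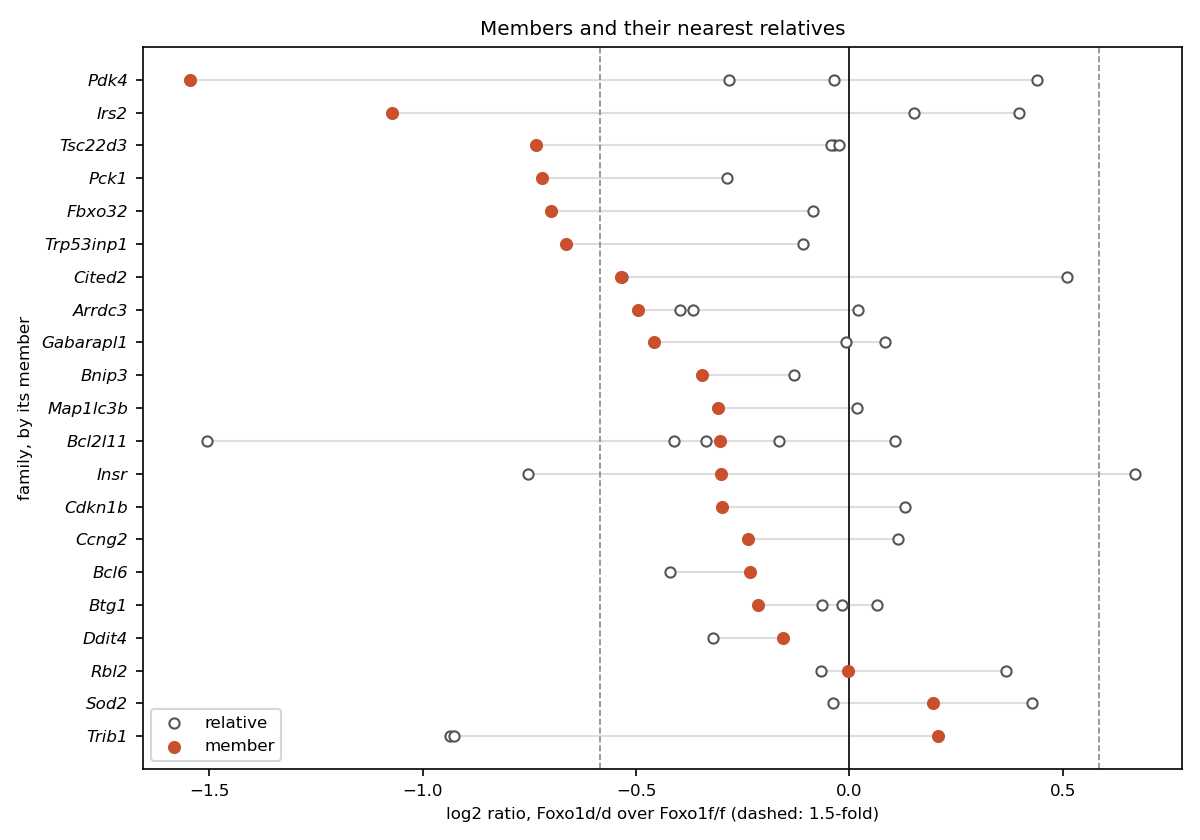
Log2 ratios (*Foxo1d/d* over *Foxo1f/f*) for 21 members (filled) and their relatives averaging at least 10 counts (open), sorted by the member's ratio, with 1.5-fold as dashed lines. The upper rows, from *Pdk4* to *Trp53inp1*, have the member past the line and the relatives inside it, and the lowest row shows the reverse for *Trib1*. Of all genes, 3.51% lie past the line on the lower side and 5.43% on the higher.

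FOXO targets known from other settings that are not among the members had a median closer to that of all genes. Of 27 such genes, 25 averaged at least 10 counts, with a median of -0.07. By any amount, 15 of the 25 were lower (60%, against 44.9% of all genes) and 10 higher. The counting interval lay wholly below no difference for 13 of the 25, against 27.1% of all genes. It lay wholly above for 7, against 5718 of the 15696 genes. Past 1.5-fold, 1 was lower and 3 higher, against 3.51% and 5.43% of all genes. *Ctsl* was the most abundant. The one past 1.5-fold lower was *Klf2*, at -0.65 (counting interval -0.72 to -0.58), a gene of endothelium and lymphocytes. All 3 past it on the higher side were lymphocyte genes, among them *Ccr7* and *Il7r*, at 1.44 and 1.14. Leukocyte markers were on the same side: 13 of 13 with enough counts were higher, 6 past 1.5-fold, with a median of 0.45, and they summed to 538 and 665 CPM, with *Lyz2* the most abundant and none at 0. Among these were *Cd8a* (1.94) and *S100a9* (1.19). Their part in the ratios of these lymphocyte genes was not tested.

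Other programs that use some of the same members were read from genes outside the list. The 12 p53 targets had a median of 0.07, none past 1.5-fold, and *Ccng1* was the most abundant. The 16 hypoxia targets had a median of 0.06, with *Pfkfb3* (1.10) and *Hk2* (1.02) past 1.5-fold higher, *Ndrg1* (-0.85) and *Slc2a1* (-0.68) lower, and *Ldha* the most abundant. Among 10 genes of the glucocorticoid and progesterone response, a list set beside *Tsc22d3*, the median was -0.06, *Zbtb16* (-0.70) was past 1.5-fold lower, *Mt2* (0.78) and *Mt1* (0.66) were higher, and *Errfi1* was the most abundant. The 11 genes of the ATF4 stress response had a median of -0.02, with *Trib3* alone past 1.5-fold and *Vldlr* the most abundant.

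The other marker lists describe the tissue in which the members were measured. Stromal markers were abundant and close to even, 12 of 12 within 1.5-fold, with a median of -0.05 and summed levels of 15321 and 15254 CPM, led by *Col3a1*. Endothelial markers were lower in 10 of 10, none past 1.5-fold, with a median of -0.22 and summed levels of 1832 and 1549, led by *Pecam1*. Epithelial markers were higher in 13 of 14, 3 past 1.5-fold, with a median of 0.35 and summed levels of 979 and 1213, led by *Cdh1*, and the 3 were *Krt19* (1.22), *Elf3* (0.86) and *Wnt7a* (0.66). None of these lists had a gene at 0. Of 6 gland markers with enough counts, *Spink3* (-4.70), *Prss29* (-4.46) and *Ttr* (-1.31) were past 1.5-fold lower and *Aldh1a1* (0.60) higher, while *Sox17* stood at 0.54 and the gland transcription factor gene *Foxa2* at 0.04. Their summed levels were 807 in *Foxo1f/f*, led by *Prss29*, and 256 in *Foxo1d/d*, led by *Sox17*. The 6 ovary and oviduct markers with enough counts had a median of 0.10, summed levels of 185 and 207, led by *Ovgp1*, and *Foxj1* (0.88) was past 1.5-fold higher. Of the red cell genes, *Alas2* was at 1.39, with 5.61 and 14.8 CPM, and the 4 hemoglobin genes of the list were at 0, while *Beta-s*, a hemoglobin gene not on the list, was past 1.5-fold higher. The part of these lists in the members' ratios was not tested.

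**Figure D5:**
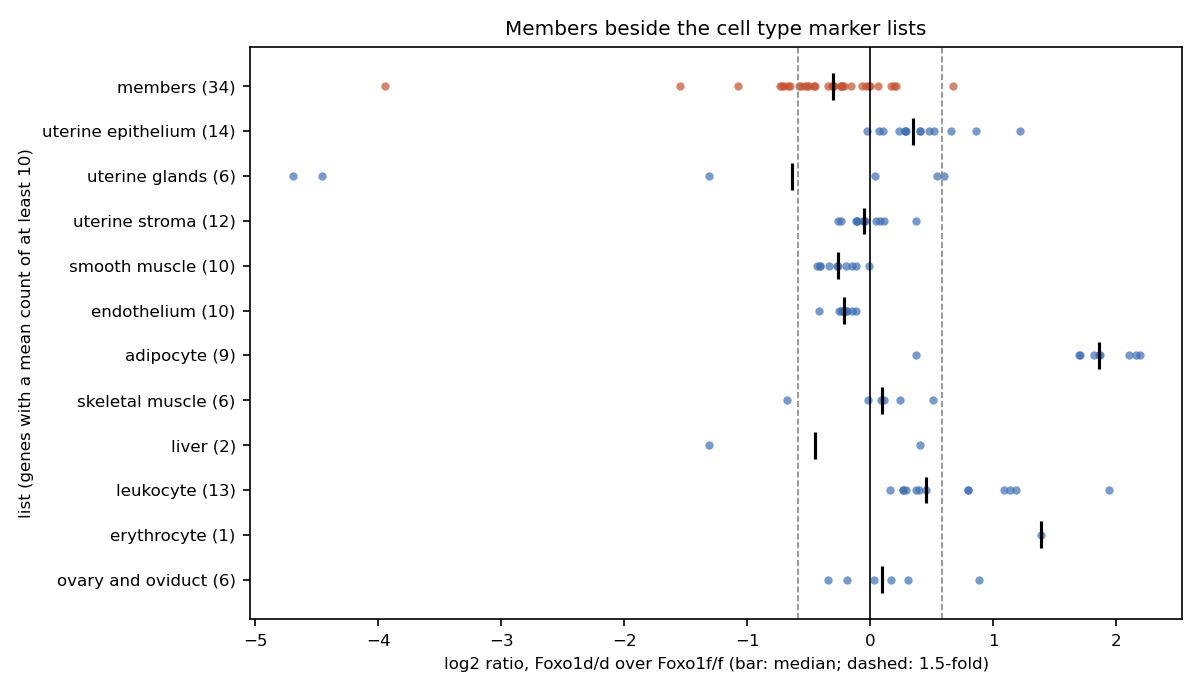
Log2 ratios (*Foxo1d/d* over *Foxo1f/f*) for the members (red) and for each list of cell type markers (blue), 1 point per gene averaging at least 10 counts, with the median as a black bar and the number of genes in brackets. The members' median lies at -0.31, near those of smooth muscle and endothelium, while the adipocyte markers sit apart on the higher side.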

How the data were processed

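Per the methods of the study, the authors prepared poly(A) libraries from pooled total RNA, sequenced them in pairs, trimmed low-quality bases, mapped the reads to mm10 (STAR), dropped duplicate reads (Picard), assigned reads to RefSeq genes (HTSeq) and then tested the genotypes (edgeR). The submitters' processing notes name mm9, and the table holds no coordinates, so which build gave the counts is not settled here. Versions and the strand setting are not given in the sources used here. The deposited table gives, for each genotype, a mean raw count of every gene, each a whole number after multiplication by 3 (tolerance 1e-06). Its other columns hold the authors' signed fold change, average log2 CPM over all libraries, p-value and FDR, and were not used.

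Here the mean counts were scaled by the column totals and compared as log2 ratios, with a pseudocount of 1, for genes with a mean of at least 10, with an exact conditional binomial interval at 95% from the summed counts. No test was run. The ratio and its interval were tested on simulated counts that held counting error only, without differences between pools. Exon lengths, positions and overlaps come from GENCODE M21 basic gene models on GRCm38, matched by Entrez ID, and all 36 members matched. Promoters come from RefSeq on GRCm38.p6. Python 3.11.15 with numpy 2.4.6, scipy 1.17.1, pandas 2.3.3 and matplotlib 3.10.9 was used. Members with a mean of at least 10 past 1.5-fold, or with few counts, are given in full, and the others by role and range, with the most abundant and most different genes of each comparison list. Some genes of the comparison lists that this rule names are not reported here. Further members, *Beta-s* and a few list genes were named singly after their values were seen. Members and lists were chosen with earlier results of these data known, and relatives were assigned to members by family after the data were seen. Alternatives covered the fold threshold, scaling, pseudocount, filter and motif search.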

Additional observations from a re-analysis of the deposited data

How the results depend on the processing

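The counts of members past the threshold followed the fold chosen. At 2-fold, 3 members were lower, 0 were higher, and 2 of the relatives passed in either direction, against 1.40% of all genes lower and 1.99% higher. At the looser planned threshold, a log2 ratio of 0.32 either way, 16 members were lower, 1 was higher, and 19 relatives passed, against 9.0% lower and 12.5% higher over all genes. Under the other scalings, pseudocounts and filters, 8 to 10 members were past 1.5-fold lower, 1 was higher and 7 relatives passed, against 2.58% to 5.13% of all genes lower and 3.81% to 7.52% higher. Of 180 ratios of single members under other scalings and pseudocounts, 176 stayed within their counting interval. The other 4 moved outside it (*Txnip* under each scaling and *Igfbp1* under the larger pseudocount). Among the members past 1.5-fold, 0 changed sign. The other scalings move all ratios alike, by -0.0247 to -0.0209, so that such a change was not possible under them. The promoter count was 9 with the bases before the start only, 6 with the DAF-16 element alone and 4 with the insulin response element alone, since each search covers less. No paired analysis was possible because the table gives a mean per genotype and no result comes from a test. Leaving out a replicate could not be run for the same reason. The spread between pools was therefore not measured here, and a difference larger than its counting interval may still lie within it. Depth limits *Igfbp1*, *G6pc* and *Trim63*.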
